A study of Caenorhabditis elegans with 6 samples.

Results

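The *lbp* genes encode intracellular-type lipid-binding proteins of *C. elegans* and the *far* genes encode fatty acid- and retinol-binding proteins. Described here are 10 of them, namely *lbp-1*, *lbp-2*, *lbp-3*, *lbp-5*, *lbp-6*, *lbp-8*, *far-1*, *far-2*, *far-3* and *far-7*. They were chosen by symbol, with no measured value in the choice, and found through their WormBase identifiers among the 46904 gene identifiers of the deposited count table. The table holds 17 genes of both families, 9 *lbp* and 8 *far*, and the other 7 are used for comparison. RNA was sequenced from whole N2 worms, the wild-type laboratory strain, in 3 libraries of CGP37157-treated worms and 3 libraries of control worms. CGP37157 is an inhibitor of the mitochondrial Na+/Ca2+ exchanger. Exposure to 50 µM CGP37157 in the plates began in young adulthood and had lasted to day 5 when RNA was taken. Control worms were handled alike on untreated plates, with a daily plate change and a temperature of 20 °C for both groups. The labels give both groups an age of 5 days. Worms were washed free of eggs and larvae before extraction, and the libraries were made from mRNA with a kit that marks strand. The labels do not say how many worms went into a library, nor whether the replicates came from separate cultures, so the p-values below measure only the spread between these libraries, which may be technical.

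The CGP37157 libraries held between 23821727 and 24551795 counts on genes, and the control libraries between 21122852 and 21245713. Levels are given as CPM, counts brought to a common library total, after scaling by TMM, the normalization of edgeR. Control replicate 2 was the library least like the rest, with Pearson correlations of log2 CPM to the other 5 libraries between 0.936 and 0.959, against 0.946 to 0.983 among those 5. These ranges overlap, as control replicate 1 and CGP37157 replicate 3 correlated at only 0.946. The lowest TMM factor, at 0.815, was that of control replicate 2. Where leaving out control replicate 2 turned the direction of a log2 fold change of the 10 genes or removed the overlap of the groups, the value without it is given. The tissue label was checked with defining markers, counted as present if they reached 1 CPM in at least 1 library. All 5 did so for intestine, body wall muscle, pharynx, neurons and germ line with oocytes, but only 2 of 5 for hypodermis and 1 of 5 for embryos. The pharynx marker *ceh-22* did so in control replicate 1 only, at 1.67 CPM.

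The lipid-binding proteins of the *lbp* family are relatives of the mammalian fatty acid-binding proteins, small beta-barrel proteins that hold a fatty acid or a similar ligand in a central cavity and carry it through the watery cytoplasm. The FAR proteins are found in nematodes and are built of alpha helices instead. They bind fatty acids and retinol, and parasitic nematodes are known to secrete them. In *C. elegans* adults the interest in these carriers comes largely from LBP-8, which takes a lipid signal from the lysosome to the nucleus, where the nuclear hormone receptors NHR-49 and NHR-80 respond, and which is linked to lifespan.

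None of the 10 genes passed the test for a difference between CGP37157-treated and control worms. The test was edgeR's quasi-likelihood test on the counts, with Benjamini-Hochberg adjustment over the 12385 genes that reached 1 CPM in at least 3 libraries, and it took in 9 of the 10 genes, since *lbp-8* was too scarce. Of those 9, 0 had an adjusted p under 0.05, where 1.4% of all tested genes did (173 genes), and every adjusted p was 1.00. With DESeq2 the count was also 0, beside 2.1% of all tested genes. At an unadjusted p under 0.05, edgeR's quasi-likelihood test gave 0 of the 9, DESeq2 gave 1 and edgeR's likelihood ratio test gave 1, the gene in both cases being *far-3*. The quasi-likelihood test also placed *far-3* under that limit in 4 of its other settings and *far-7* in 1, named with those genes below. The share of all tested genes under that unadjusted limit was 4.79% with the quasi-likelihood test, 4.72% with DESeq2 and 4.93% with the likelihood ratio test. The CGP37157 and control libraries overlapped in level for all 9 genes, whereas they were apart for 7.54% of all tested genes. In whole worms, fewer cells of a type and less RNA per cell cannot be told apart.

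The log2 fold changes, CGP37157 over control, ran between -0.18 for *lbp-1* and 0.78 for *far-3*, with 5 above 0 and 4 below, where 47.4% of all tested genes were above 0. Their median was 0.033, beside -0.014 over all tested genes. The 95% interval of the fold change lay within -1 and 1 on the log2 scale for 7 of the 9 genes, an interval that holds no change of 2-fold or more. The same was true of 74.2% of all tested genes. The exceptions were *far-3* and *far-7*, whose intervals reached 1.61 and 1.48. In simulated counts made like these libraries, the test found 97% of the genes changed 4-fold and 22% of those changed 2-fold. Changes of 2-fold or less would thus mostly be missed.

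**Figure D1:**
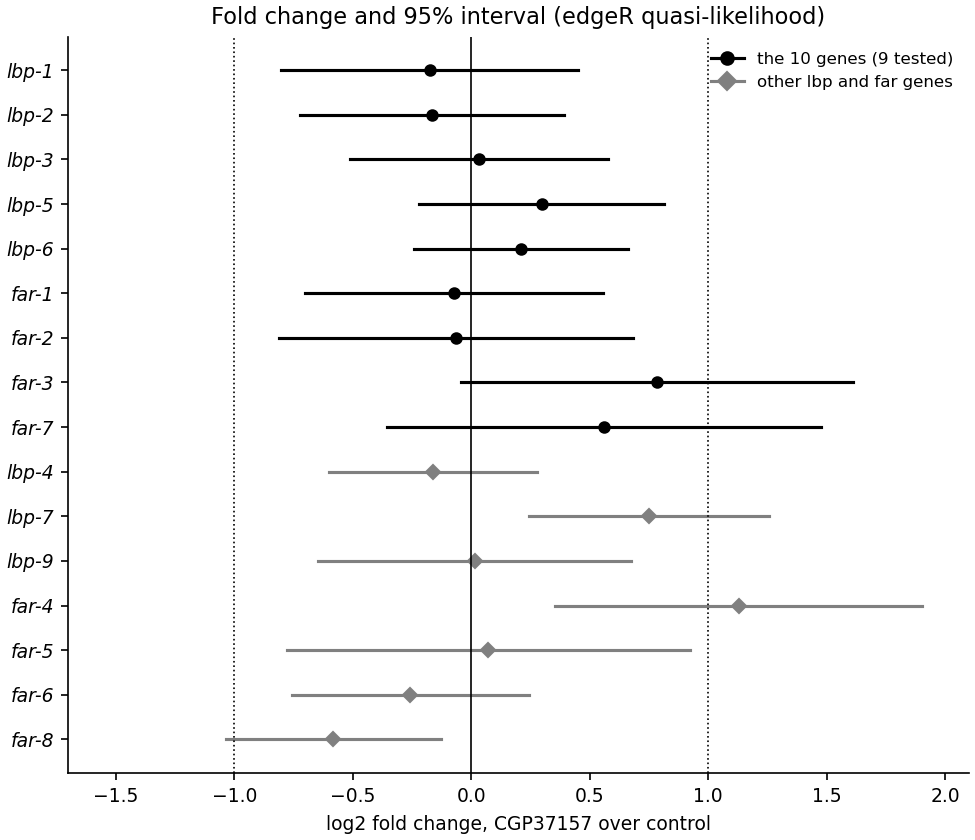
Log2 fold change of each *lbp* and *far* gene, CGP37157 over control (horizontal axis), from edgeR's quasi-likelihood fit. Points are estimates and lines 95% intervals, black for the 9 tested genes of the 10 and grey for the other 7 of both families. Dotted lines mark -1 and 1. All 9 black lines cross 0, and those of *far-3* and *far-7* pass 1.

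The genes spanned a wide range of abundance, compared here as CPM per kb of exon so that gene length does not enter. *far-2* was the most abundant, with 16387, 9780 and 12373 CPM per kb in the CGP37157 libraries and 10574, 16177 and 13578 CPM per kb in the control libraries. Its mean over the 6 libraries, 13145 CPM per kb, was rank 1 among the 12381 tested genes that have an exon length in the annotation. *far-1* followed with a mean of 3246 CPM per kb at rank 53, *lbp-2* with 1178 at rank 131 and *far-3* with 576 at rank 217. These 4 genes held their order in both groups, with ranges over the 3 libraries that do not touch.

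By mean, *lbp-3*, *lbp-1* and *lbp-6* came next, with 201, 191 and 124 CPM per kb. In the control libraries *lbp-1* reached 288.3 CPM per kb, just past the lowest *far-3* value of 284 CPM per kb, so these genes were apart in the CGP37157 libraries only. *lbp-3* and *lbp-1* could not be ordered, as their ranges overlapped in both groups. *lbp-1* and *lbp-6* overlapped in the control libraries and were apart in the CGP37157 libraries. *lbp-5* had a mean of 17.9 CPM per kb, *far-7* 3.17 and *lbp-8* 0.853, and *far-7* and *lbp-8* overlapped in the CGP37157 libraries only. The 10 genes together took 0.992 to 1.37% of all counts in CGP37157 libraries and 1.06 to 1.27% in control libraries. Most of that was *far-1* and *far-2*, which made up 84.8 to 87.1% of the counts of the 10 genes in CGP37157 libraries and 86.0 to 87.9% in control libraries.

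**Figure D2:**
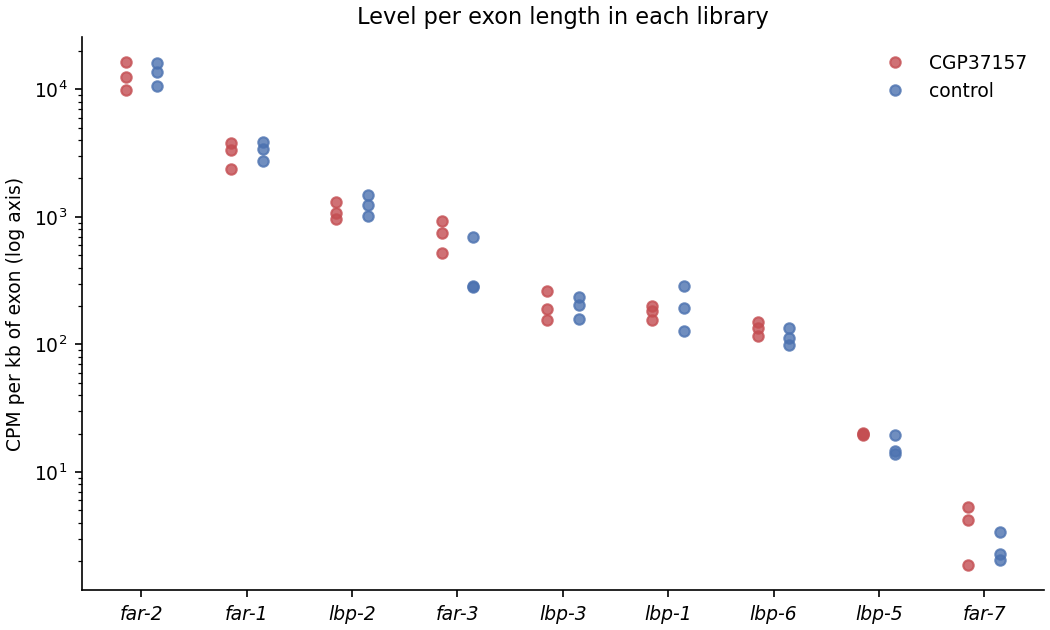
Level of 9 of the genes in each library, in CPM per kb of exon on a log axis, ordered by the mean of the 6 libraries. Each point is a library, CGP37157 to the left and control to the right within a gene, and *lbp-8* is left out because one library had 0 counts. *far-2* lies between 9780 and 16387 CPM per kb and *far-7* between 1.86 and 5.29, and the groups overlap for each gene.

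*lbp-1*, *lbp-2* and *lbp-3* lie in a row on the X chromosome, all on the plus strand, with *lbp-3* at 3257372-3258155, *lbp-1* at 3259142-3259812 and *lbp-2* at 3260610-3261470 in WBcel235. Gaps of 986 and 797 bases separate them, and their longest coding sequences encode 165, 159 and 161 residues. Their products carry a predicted secretory signal, and they resemble a fatty acid-binding protein found in the egg fluid of the parasite *Ascaris suum*.

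*lbp-1* had 112, 85.8 and 101 CPM in the CGP37157 libraries and 71.2, 160 and 106 CPM in the control libraries. The highest and the lowest value were both control libraries, and the treated values lay between them. The means were 99.5 ± 13.03 CPM with CGP37157 and 112 ± 44.8 CPM in control (SD, n = 3 each), a log2 fold change of -0.18 with a standard error (SE) of 0.28.

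*lbp-2*, the most abundant of the *lbp* genes described, had 984, 728 and 814 CPM in the CGP37157 libraries and 764, 1127 and 945 CPM in the control libraries. Its log2 fold change was -0.17 (SE 0.25), and the treated values overlapped the control values from below. *lbp-3* had 164, 119 and 97.7 CPM in the CGP37157 libraries and 98.9, 146 and 127 CPM in the control libraries. Here the groups covered nearly the same range, and the log2 fold change was 0.03 (SE 0.25).

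The balance among these neighbours was compared as a ratio of counts within each library, a measure that no scaling can move. There were 8.80, 8.48 and 8.07 *lbp-2* counts per *lbp-1* count with CGP37157, and 10.7, 7.04 and 8.90 in control. The ratio of *lbp-2* to *lbp-3* was 6.003, 6.11 and 8.34 with CGP37157, and 7.73, 7.69 and 7.45 in control. Neither ratio separated the groups, and both varied among libraries of one group. How reads shared between similar family members were counted is not given in the sources used here.

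**Figure D3:**
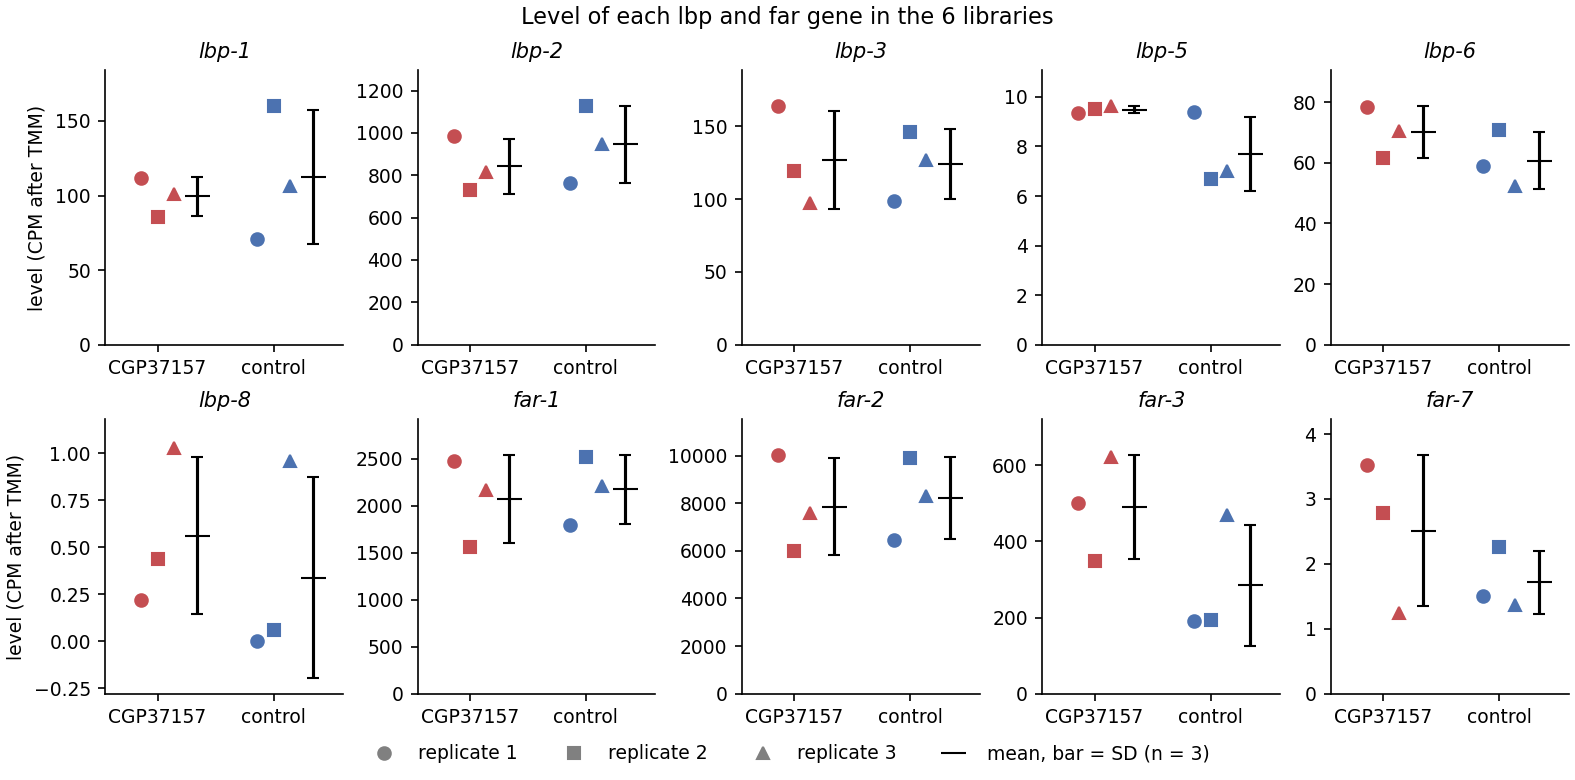
Level of each of the 10 genes in each library, in CPM after TMM on a linear axis. Symbols are the 3 libraries of a group, CGP37157 left in red and control right in blue, with the mean and an SD bar (n = 3) beside them. The groups overlap in every panel, and for *far-3* only control replicate 3 lies within the CGP37157 range.

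*lbp-5* and *lbp-6* are neighbours on chromosome I, both on the minus strand, at 6731267-6732276 and 6728296-6729376, with 1890 bases between them. LBP-5 is a cytosolic family member linked to fat storage and to NHR-49 activity. *lbp-5* had 9.33, 9.50 and 9.62 CPM in the CGP37157 libraries and 9.41, 6.68 and 7.02 CPM in the control libraries. The treated libraries were close to each other, and control replicate 1 lay among them while the other two control libraries were lower. The means were 9.49 ± 0.145 CPM with CGP37157 and 7.71 ± 1.49 CPM in control (SD, n = 3 each), a log2 fold change of 0.30 (SE 0.23).

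*lbp-6* had 78.6, 61.5 and 70.5 CPM in the CGP37157 libraries and 58.9, 70.8 and 52.3 CPM in the control libraries. Control replicate 2 was the single control library inside the treated range, and the log2 fold change was 0.21 (SE 0.20). Leaving out that library removes the overlap by construction, and the share of all tested genes apart without it was not counted. Without it edgeR's quasi-likelihood test gave 0.34 (SE 0.20) with an adjusted p of 0.987. When counts were scaled by library size alone, without TMM, all CGP37157 libraries lay above all control libraries, as they were apart for 7.52% of all tested genes under that scaling. The log2 fold change was then 0.25, and edgeR's quasi-likelihood test put its adjusted p at 1.00. *lbp-6* shares 35 bases with *mec-6* on the opposite strand, and whether counting used strand is not given in the sources used here. The ratio of *lbp-6* to *lbp-5* counts was 8.42, 6.47 and 7.32 with CGP37157 and 6.26, 10.6 and 7.44 in control, with no separation.

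*lbp-8* encodes the carrier of the lysosomal lipid signal. It lies on chromosome V at 13890773-13891364, and the nearest family gene, *lbp-7*, is 10559 bases away on the same strand. It was barely detected, with 5, 12 and 24 counts in the CGP37157 libraries and 0, 1 and 21 counts in the control libraries. A count of 0 allows up to 3 counts at that depth, counting error only. In both groups replicate 3 held most of the counts, and control replicate 3 lay within the treated range. Its fitted log2 fold change, from edgeR's quasi-likelihood test run without the filter on low counts, was 0.71 (SE 0.71), and the adjusted p was 0.999. The log2 ratio of the mean CPM, 0.73 over all libraries, was 4.27 without control replicate 3 and -0.04 without CGP37157 replicate 3, so 1 library on either side decides it.

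The genes around LBP-8 gave no call either. Of 6 listed, the lysosomal lipase *lipl-4* was too scarce to test, and of the other 5, 0 passed an adjusted p of 0.05 and 0 an unadjusted p of 0.05 with edgeR's quasi-likelihood test. Their log2 fold changes ran between -0.18 for *nhr-80* and 0.07 for *nhr-66*, another nuclear hormone receptor, with a median of 0.0034. *nhr-49*, the receptor of fatty acid metabolism, had 74.6, 86.1 and 94.4 CPM in the CGP37157 libraries and 78.6, 80.9 and 95.02 CPM in the control libraries.

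*far-1* and *far-2* stand back to back on chromosome III, *far-1* at 9080371-9081179 on the minus strand and *far-2* at 9081828-9082511 on the plus strand, with 648 bases between their starts. Their coding sequences are of equal length, 182 residues. *far-1* had 2479, 1560 and 2162 CPM in the CGP37157 libraries and 1792, 2520 and 2206 CPM in the control libraries. *far-2* had 10029, 5985 and 7572 CPM in the CGP37157 libraries and 6472, 9901 and 8310 CPM in the control libraries. For both genes CGP37157 replicate 2 was the lowest library, and the groups overlapped over most of their range. The log2 fold change was -0.07 (SE 0.28) for *far-1* and -0.07 (SE 0.34) for *far-2*. Each library held 4.05, 3.84 and 3.50 *far-2* counts per *far-1* count with CGP37157, and 3.61, 3.93 and 3.77 in control, with no separation. Counted per 1000 *far-2* counts of the same library, a measure that uses no scaling and was chosen after seeing the data, 0 of the other 8 tested genes had groups that did not overlap, where 4.91% of all tested genes did.

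*lbp-1*, *lbp-2*, *far-1* and *far-2* shared 1 order of libraries after TMM. Each was highest in CGP37157 replicate 1 and control replicate 2 within its group, and lowest in CGP37157 replicate 2 and control replicate 1. The highest places were not particular to these genes. With *lbp-3*, *lbp-6* and *far-7*, 7 of the 9 tested genes were highest in those libraries. The share of all tested genes with this order was not counted. The TMM factors ran the other way, at 0.955, 1.12 and 0.981 in the CGP37157 libraries and 1.13, 0.815 and 1.04 in the control libraries. This order was kept only in part without TMM. By library size alone *lbp-2*, *far-1* and *far-2* were highest among the control libraries in replicate 3, and *lbp-2* was lowest in CGP37157 replicate 3. The other places of these genes were unchanged, and *lbp-1* kept all of its places. By that scaling the highest library of *far-2* was 1.43 times its lowest, against 1.68 times after TMM, and for *lbp-1* the same ratios were 1.62 and 2.25. After TMM the summed markers of 5 of the 7 tissues checked were also highest in control replicate 2, those of intestine, body wall muscle, hypodermis, neurons and germ line with oocytes. The factor of 0.815 raises every level in that library, and the marker sums were not compared by library size alone. The body wall muscle sum was 5607 CPM there, against 2603 to 4191 CPM in the other libraries. The intestine sum of 752 CPM was mostly *act-5*, at 598 CPM, while *elt-2* was lower there than in any other library, at 17.8 CPM. Of the neuron sum of 343 CPM, *snb-1* made up 310 CPM. The neuron markers *ric-4* and *rgef-1* were lowest in that library, at 6.51 and 0.697 CPM. Of the germ line markers only *gld-1* and *puf-5* were highest in control replicate 2, and *glp-1* was lowest there, at 74.2 CPM. Among the muscle markers *myo-3* was highest in control replicate 1, at 77.2 CPM, and the rest in control replicate 2. The part of tissue makeup in the shared order was not tested. Without control replicate 2 the log2 fold changes were 0.17 for *lbp-1*, 0.05 for *far-1* and 0.09 for *far-2*, on the other side of 0 from the values with it, and -0.02 for *lbp-2*.

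**Figure D4:**
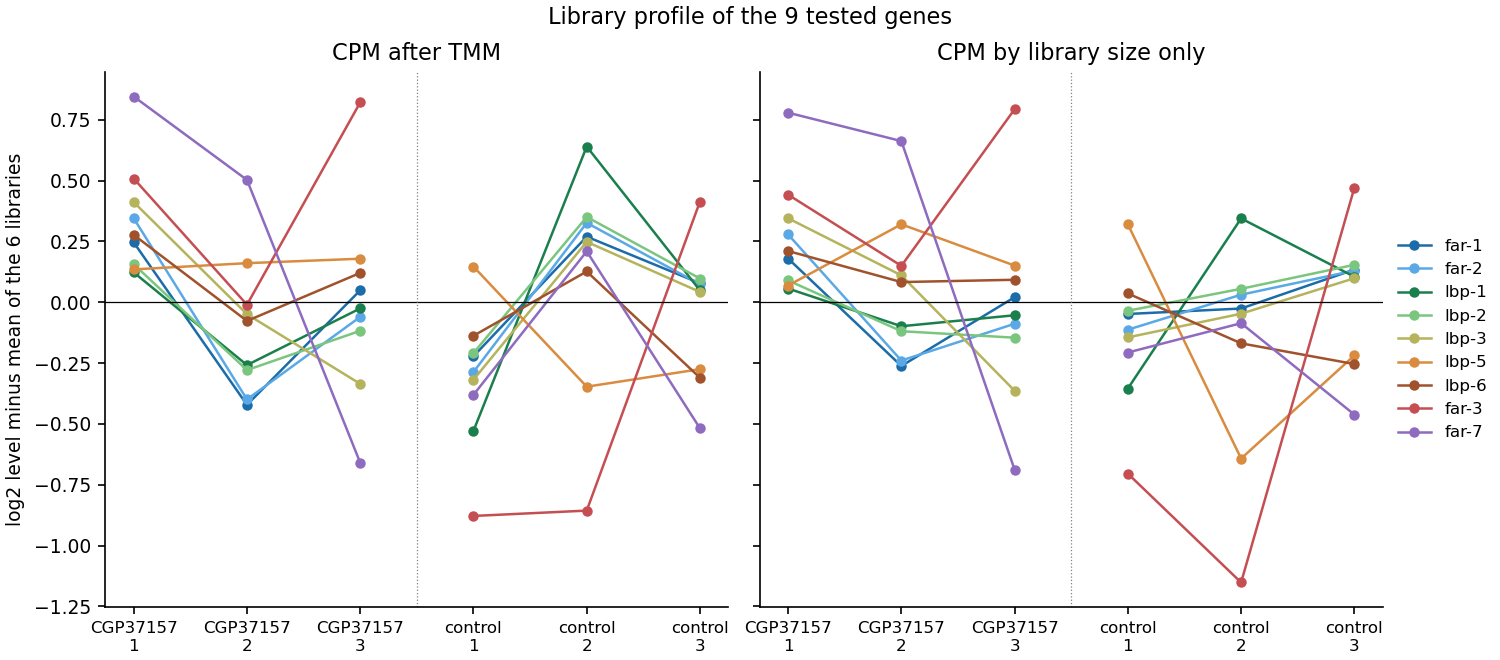
Library profile of the 9 tested genes, as the log2 level minus the gene's mean over the 6 libraries (vertical axis), after TMM on the left and by library size alone on the right. Each line joins the values of a gene within a group, CGP37157 before control, and the order of replicates has no meaning. After TMM 7 of the 9 genes are highest in replicate 2 among the control libraries, where *lbp-5* and *far-3* are low.

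*far-3* showed the largest difference of the 10 genes. It lies on chromosome V at 12996787-12997522 on the minus strand, between *far-5* and *far-4*, and encodes 189 residues. It had 500, 349 and 621 CPM in the CGP37157 libraries and 191, 194 and 468 CPM in the control libraries. Control replicates 1 and 2 lay below every treated library, and control replicate 3 lay within the treated range, above CGP37157 replicate 2. The means were 490 ± 136 CPM with CGP37157 and 285 ± 159 CPM in control (SD, n = 3 each). The fitted fold change was 1.72, with a 95% interval of 0.971 to 3.06, or 0.78 on the log2 scale (SE 0.37), and the adjusted p was 1.00 with edgeR's quasi-likelihood test. *far-3* varied more within groups than 92.0% of tested genes, with an SD of 0.60 on the log2 scale.

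DESeq2 did not call *far-3* either, and gave a log2 fold change of 0.81 with an adjusted p of 0.696. The size of the difference depended on a single library, as over the fits that left out 1 library the estimate lay between 0.57 and 1.35. The highest value came without control replicate 3, where edgeR's quasi-likelihood test put the adjusted p at 0.116, the smallest of any of the 9 genes under the settings tried. Its unadjusted p was under 0.05 in that fit, without CGP37157 replicate 2, without the filter on low counts, and when the replicate number was a block. The summed body wall muscle markers were lower in replicate 3 of both groups, 2603 CPM with CGP37157 and 2874 CPM in control, than in the other libraries, 3320 to 5607 CPM. Taken singly, *unc-54*, *unc-15* and *lev-11* had this pattern. However, *myo-3* was lower in CGP37157 replicate 1 than in control replicate 3 (40.5 against 47.1 CPM). Likewise *unc-27* was lower in CGP37157 replicate 2 than in control replicate 3 (370 against 390 CPM). The part of these markers in the *far-3* values was not tested.

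**Figure D5:**
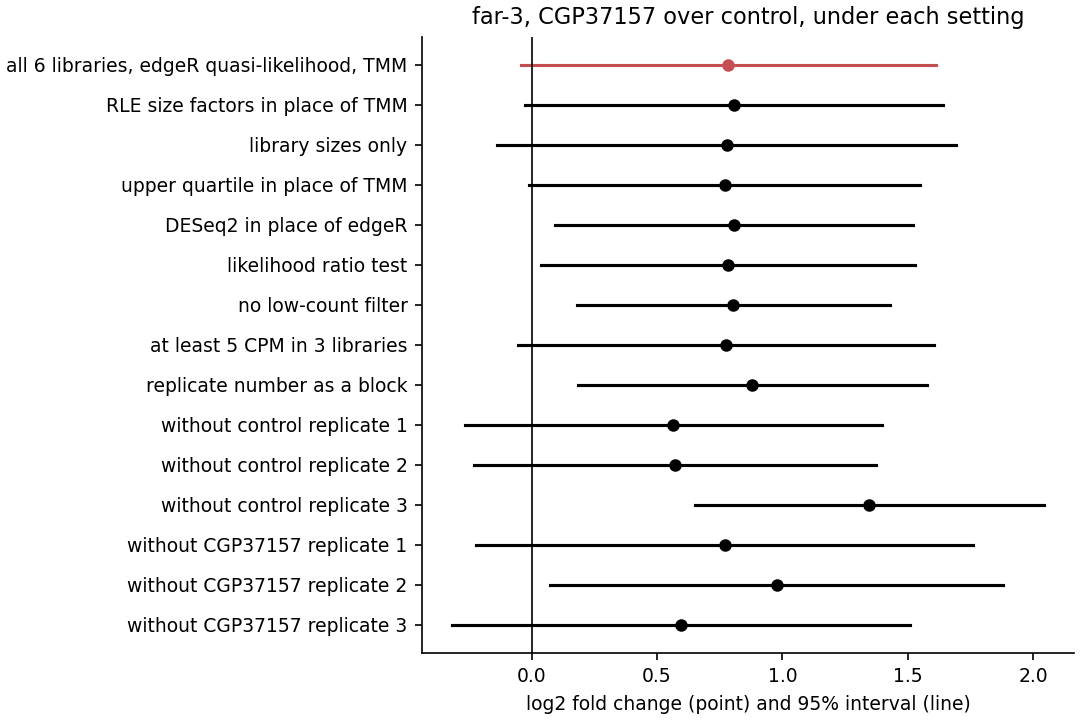
Log2 fold change of *far-3*, CGP37157 over control (horizontal axis), for all 6 libraries in red and for each other setting in black. Points are estimates and lines 95% intervals. All estimates are above 0, between 0.57 and 1.35, and the highest is the fit without control replicate 3.

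*far-3* overlaps *far-5* by 50 bases on the opposite strand, and *far-4* lies 904 bases away. *far-5* and *far-4* were scarce beside it, with 3.55 to 5.15 and 2.25 to 3.07 CPM in CGP37157 libraries, and 2.56 to 7.07 and 0.76 to 1.55 CPM in control libraries. Relative to *far-1*, the counts of *far-3* came to 0.202, 0.224 and 0.287 with CGP37157 and 0.107, 0.0770 and 0.212 in control, so control replicate 3 again overlapped the treated libraries. The genes outside the families most like *far-3* over the 6 libraries, by Pearson's r of log2 CPM, were *F25B4.7* (0.989), *sec-12* (0.980) and *vps-22* (0.980). Of 12369 genes, 26 had an r over 0.95. With 6 libraries that share scaling, these values only describe likeness, and the log2 fold changes of the 3 genes were 0.19, 0.23 and 0.14.

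*far-7* lies apart from the other family genes on chromosome II, at 319789-321110. It encodes 138 residues, and the crystal structure of its protein is of the helical FAR type. It was scarce, with 80, 76 and 29 counts in the CGP37157 libraries and 36, 39 and 30 counts in the control libraries. In CPM these were 3.52, 2.78 and 1.24 with CGP37157 and 1.51, 2.27 and 1.37 in control. CGP37157 replicates 1 and 2 were the highest libraries and CGP37157 replicate 3 was the lowest of all 6. The log2 fold change was 0.56 (SE 0.41), and 0.90 without CGP37157 replicate 3, and both fits of edgeR's quasi-likelihood test had an adjusted p of 1.00. Only the fit without that library put the unadjusted p under 0.05.

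The other 7 genes of the families were all tested, and 0 had an adjusted p under 0.05 with edgeR's quasi-likelihood test, while 3 had an unadjusted p under 0.05, where 4.79% of all tested genes did. The same 3 were the ones whose groups did not overlap, beside 7.54% of all tested genes. Whether these 7 genes differ from the 10 was not tested. *lbp-7*, the neighbour of *lbp-8*, had 12.3, 13.01 and 15.1 CPM in the CGP37157 libraries and 6.77, 9.36 and 7.94 CPM in the control libraries. Its log2 fold change was 0.75 (SE 0.23), and its adjusted p 0.313 by the same test. *far-4*, the neighbour of *far-3*, had 2.25, 3.07 and 2.27 CPM in the CGP37157 libraries and 1.13, 0.76 and 1.55 CPM in the control libraries. Its log2 fold change was 1.13 (SE 0.35), the highest of both families, with an adjusted p of 0.334. *far-8* was lower in every treated library, with 84.3, 72.7 and 78.5 CPM in the CGP37157 libraries and 93.1, 130 and 129 CPM in the control libraries. Its log2 fold change was -0.58 (SE 0.20), with an adjusted p of 0.533. *lbp-4*, *lbp-9*, *far-5* and *far-6* had log2 fold changes between -0.26 and 0.07, with overlapping groups.

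Other lipid carriers were compared in the same fit. Acyl-CoA-binding proteins, which hold activated fatty acids in the cytosol, had 5 of 6 genes tested, and edgeR's quasi-likelihood test left 0 under an adjusted or an unadjusted p of 0.05. The lowest log2 fold change was -0.03 for *acbp-1*, the highest 0.21 for *acbp-3*, and the median 0.034. Of 8 genes of yolk transport, 0 passed the adjusted threshold and 1 had an unadjusted p under 0.05 with edgeR's quasi-likelihood test, against 2 with DESeq2 and 2 with the likelihood ratio test. The shares of all tested genes under that limit were 4.79%, 4.72% and 4.93% with these tests. The median log2 fold change of the yolk genes was -0.27, but 0.04 without control replicate 2, where 3 of the 8 were below 0. The lowest was *vit-3*, a yolk protein gene, with 878, 846 and 769 CPM in the CGP37157 libraries and 1099, 2178 and 1349 CPM in the control libraries, a log2 fold change of -0.89 (SE 0.29) and an adjusted p of 0.438. Without control replicate 2 the log2 fold change of *vit-3* was -0.56 (SE 0.21), with an adjusted p of 0.556. The highest, at 0.15, was *dsc-4*, which encodes a microsomal triglyceride transfer protein that loads lipid onto yolk particles.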

How the data were processed

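The values used are unnormalized whole-number counts for each gene, which the authors deposited in a pair of tables that hold the same counts. Per the submitters' processing notes, HISAT2, featureCounts, DESeq2 and edgeR were used, without versions, and the genome build is not given in the sources used here. The same tables hold scaled counts, group means, fold changes and p-values from the authors' own comparisons, which were not used. Of 46904 identifiers, 44017 had a symbol, and 46817 were found in release 115 of Ensembl's WBcel235 annotation, from which positions and exon lengths came.

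Counts were tested with edgeR 4.0.16 (glmQLFit and glmQLFTest) in R 4.3.3, with TMM, on the 12385 genes that reached 1 CPM in 3 or more libraries, with the condition alone as covariate and Benjamini-Hochberg adjustment at 0.05. SE and intervals were derived from the test statistic. The spread within groups used log2 of CPM plus 0.5. The test was checked on simulated counts with 200 changed genes, with 9 false calls. No pair of replicates agreed within sampling noise, the lowest chi-square per degree of freedom being 38.9. The alternatives were other scalings, DESeq2 1.42.0, the likelihood ratio test, other filters, a fit without each library in turn, and the replicate number as a block. Named are all 17 family genes, the calls or else the extremes of each other list, and the 3 genes most like *far-3*, which had the smallest p of the 10 genes. *nhr-49* and *lipl-4* were named after their values were seen, and ratios of counts between genes were also chosen then. The genes and lists were chosen with earlier results of these data known.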

Additional observations from a re-analysis of the deposited data

How the results depend on the processing

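Over 14 alternative settings, 125 fits of a tested gene were made, of which 118 kept the direction of the log2 fold change, 7 reversed it, and 0 had an adjusted p under 0.05. All reversals came from leaving out 1 library and concerned *lbp-1*, *lbp-3*, *far-1* and *far-2*. With all libraries their log2 fold changes were -0.18, 0.03, -0.07 and -0.07, while *lbp-2*, at -0.17, kept its direction. Over the fits without 1 library the log2 fold change lay between -0.42 and 0.17 for *lbp-1*, between -0.19 and 0.21 for *lbp-3*, between -0.22 and 0.10 for *far-1*, and between -0.28 and 0.10 for *far-2*. The reversed values were 0.17 for *lbp-1*, 0.05 for *far-1* and 0.09 for *far-2* without control replicate 2, -0.11 and -0.19 for *lbp-3* without control replicate 1 and without CGP37157 replicate 1, and 0.10 for *far-1* and 0.10 for *far-2* without CGP37157 replicate 2. The cause was not tested. The minimum of 5 CPM left *far-7* untested. No scaling moved the median of all genes by over 0.1 on the log2 scale.

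Over all genes, 173 were called, against 260 with DESeq2 (200 higher, 60 lower) and 274 with no filter on low counts (208 higher, 66 lower), and 130 to 194 when 1 library was left out. In the sample titles a CGP37157 and a control library with the same number end in the same suffix, which no source used here explains. Libraries of the same number had residual correlations of 0.105, -0.508 and 0.387, and only the libraries numbered 3 correlated best with each other. The main fit did not read the numbers as pairs. With so few libraries, these correlations cannot decide whether libraries of the same number were handled together. With the replicate number as a block, 137 genes were called and none of the 9, and *far-3*, higher with CGP37157 within each number, had a log2 fold change of 0.88, for which edgeR's quasi-likelihood test gave an unadjusted p of 0.0204 and an adjusted p of 0.661. With 3 libraries a group and the spread seen here, changes of 2-fold or less were mostly beyond reach. For *lbp-8* and *far-7* the counts themselves were few.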

Other observations

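On the measure of counts per 1000 *far-2* counts of the same library, chosen after seeing the data, *far-3* came to 49.9, 58.3 and 82.1 per 1000 *far-2* counts in the CGP37157 libraries, against 29.5, 19.6 and 56.4 in the control libraries, with control replicate 3 again inside the treated range. *lbp-7* came to 1.23, 2.17 and 1.99 in the CGP37157 libraries, against 1.05, 0.945 and 0.955 in the control libraries. *far-4* came to 0.224, 0.513 and 0.299 in the CGP37157 libraries, against 0.174, 0.0763 and 0.187 in the control libraries. These 2 genes were higher in every treated library on this measure. *far-8* was lower in every treated library, with 8.41, 12.1 and 10.4 in the CGP37157 libraries, against 14.4, 13.1 and 15.6 in the control libraries. Groups did not overlap on this measure for 4.91% of all tested genes. The same genes were apart after TMM, but both measures rescale the same counts, so neither is separate support for the other.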
